A study of Mus musculus with 19 samples.

Results

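Tat, Tdh, Gcat, Gldc and Amt encode enzymes that break down tyrosine, threonine and glycine, and all 5 were listed among the 14173 genes measured in single mouse blastocysts. They were picked by symbol and chosen with results of the comparison of Padi6-mutant with Control embryos already known, so their differences between these groups are described below without a test. The Padi6-mutant group held 9 embryos and the Control group 10, with 1 polyadenylated RNA library each. The study's text describes the mutant embryos as derived from oocytes with the P620A change in Padi6, a protein of the oocyte cytoplasm, and as those that got past a block at the 2-cell stage. The labels used here give no strain, age, litter or collection day, so each embryo was taken as 1 biological replicate, and embryos of a litter may share more than is modelled. Levels are log2(scaled count + 1), where each library was scaled to the same upper quartile.

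Mitochondria turn threonine into glycine in a pair of steps. L-threonine dehydrogenase (Tdh) oxidizes threonine to 2-amino-3-ketobutyrate, and glycine C-acetyltransferase (Gcat) splits that product into glycine and acetyl-CoA. The glycine cleavage system then breaks glycine down to carbon dioxide and ammonia and passes a one-carbon unit to tetrahydrofolate; glycine decarboxylase (Gldc) is its P protein, aminomethyltransferase (Amt) its T protein, Gcsh its lipoyl carrier or H protein, and Dld its L protein. Mouse embryonic stem cells and the inner cell mass are known for high Tdh and a dependence on threonine. Tyrosine aminotransferase (Tat) opens tyrosine breakdown and is best known from liver.

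The 5 transcripts did not behave as a block. Tat was 8.58-fold lower in Padi6-mutant than in Control embryos and Amt was 2.05-fold higher, and for both genes every Padi6-mutant embryo lay outside the range of the Control embryos. Tdh, Gcat and Gldc overlapped between the groups. In the limma fit over all genes, 2 of the 5 genes passed an adjusted p of 0.05, Amt among the higher and Tat among the lower, where 26.6% of all genes passed, 14.6% higher and 12.0% lower in Padi6-mutant embryos. The groups did not overlap for 2 of the 5 genes and for 2.96% of all genes. Since the genes were chosen with this comparison known, nothing is read from either count. The median log2 difference of all genes was -0.10.

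Because the study concerns DNA methylation, the promoters of Tat and Amt, the genes with the clearest separation, are shown with each CG dinucleotide in capitals. Both are RefSeq sequences of build GRCm38.p6, from 250 bases before to 50 bases after the start of the gene, 5′ to 3′ on the plus strand. The Tat window is chr8:109990186-109990485 and the Amt window is chr9:108296655-108296954.
Tat: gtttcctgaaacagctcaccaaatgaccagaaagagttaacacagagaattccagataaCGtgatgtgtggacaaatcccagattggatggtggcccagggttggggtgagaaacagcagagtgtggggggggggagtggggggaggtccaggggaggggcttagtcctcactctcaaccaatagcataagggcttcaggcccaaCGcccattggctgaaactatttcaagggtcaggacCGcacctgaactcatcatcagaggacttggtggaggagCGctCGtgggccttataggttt
Amt: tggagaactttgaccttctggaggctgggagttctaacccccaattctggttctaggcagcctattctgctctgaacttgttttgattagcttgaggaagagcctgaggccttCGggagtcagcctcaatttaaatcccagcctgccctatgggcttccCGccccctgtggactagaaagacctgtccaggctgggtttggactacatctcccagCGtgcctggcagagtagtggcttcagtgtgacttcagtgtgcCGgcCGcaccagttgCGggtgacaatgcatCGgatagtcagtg
The Tat window held 5 CG dinucleotides and the Amt window 7, against a median of 7.0 over 32851 RefSeq promoter windows of this length. Gldc had 10 and Gcat 21, and 24.8% of all windows held at least as many as Gcat; Tdh was not matched. The letters TATAAA were on neither strand of these 4 windows, while 13.6% of all windows held them. The letters CCAAT were found 3 times in the Tat window over both strands (1 forward, 2 reverse), once in Amt, once in Gldc and not in Gcat, and 37.4% of all windows held them on either strand. No methylation values were analysed here, so these counts describe the sequence alone.

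**Figure D1:**
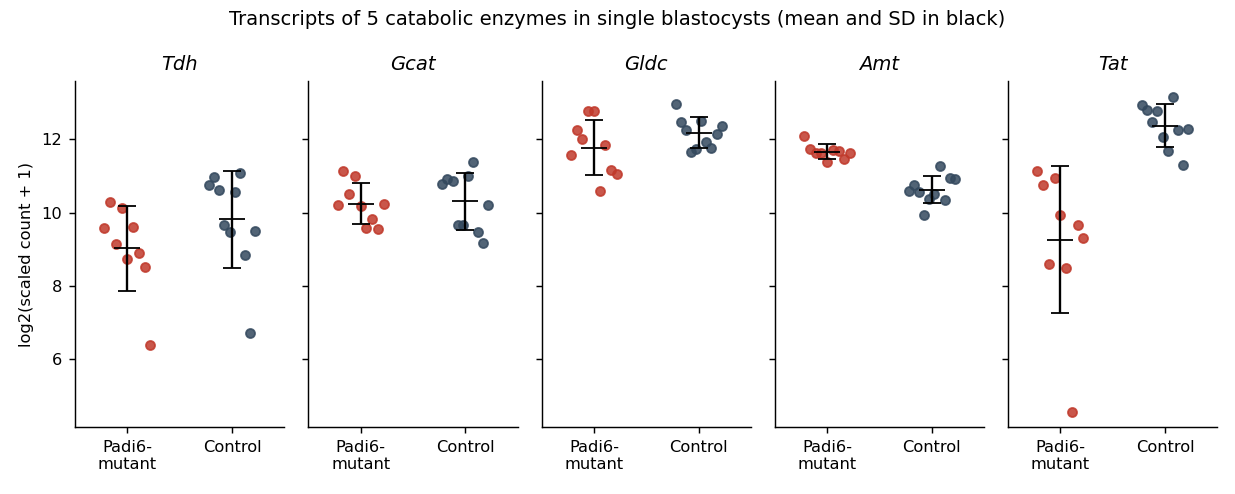
Levels of Tdh, Gcat, Gldc, Amt and Tat in each blastocyst, as log2(scaled count + 1), with 9 Padi6-mutant and 10 Control embryos side by side. Each point is 1 embryo and the black bars give the mean and SD. All Padi6-mutant points lie above the Control points for Amt and below them for Tat, and the groups overlap for the other 3 genes.

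Tdh, the first enzyme of threonine breakdown (chromosome 14), ranged from 6.39 to 10.28 with a median of 9.14 in Padi6-mutant embryos, and from 6.71 to 11.07 with a median of 10.11 in Control embryos. Padi6-mutant 10 (6.39) and Control 9 (6.71) stood far below the other embryos of their groups, and 7 of 9 Padi6-mutant embryos lay below the Control median. Padi6-mutant embryos averaged 9.03 ± 1.16 (SD, n = 9) against 9.81 ± 1.32 for Control embryos (SD, n = 10), and the log2 difference of -0.78 (SE 0.51) is smaller than either SD. This value rested on a few libraries: it was -0.45 without Padi6-mutant 10 and -1.13 without Control 9. It was -0.07 when Padi6-mutant 6, 8, 9 and 10 were left out, the 4 sparse libraries in which over 400 genes were at 0. It was 0.41 with a term in the model for how many genes each library detected, so no direction is read from it. Another gene model, Gm17232, overlaps Tdh in GENCODE M21, and the strand setting of the counting is not given in the sources used here.

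Gcat, which takes over the product of Tdh (chromosome 15), ranged from 9.55 to 11.14 with a median of 10.21 in Padi6-mutant embryos and from 9.16 to 11.38 with a median of 10.49 in Control embryos. The Padi6-mutant values all fell inside the Control range. The means were nearly equal, with Padi6-mutant embryos at 10.25 ± 0.56 (SD, n = 9) and Control embryos at 10.31 ± 0.77 (SD, n = 10), and the log2 difference was -0.06 (SE 0.29). The sign of this small value turned to 0.21 once each library's trend on transcript length and GC content was taken out, and to 0.18 without the 4 sparse libraries. GENCODE M21 has 2 gene models under the symbol Gcat, and the gene model of Galr3 overlaps Gcat. How the authors' counting treated reads of these models is not given in the sources used here.

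Gldc, the decarboxylase of glycine cleavage (chromosome 19), ranged from 10.59 to 12.75 with a median of 11.85 in Padi6-mutant embryos and from 11.66 to 12.96 with a median of 12.20 in Control embryos. Padi6-mutant embryos 2, 7, 9 and 10 lay below every Control embryo, whereas Padi6-mutant 5 and 6, at 12.75 each, lay above all Control embryos but Control 1. On average, Padi6-mutant embryos had 11.77 ± 0.75 (SD, n = 9) against 12.17 ± 0.41 for Control embryos (SD, n = 10), and the log2 difference was -0.40 (SE 0.25). It shrank to -0.06 with the length and GC trend taken out. The gene model of Rpl31-ps20 overlaps Gldc in GENCODE M21.

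Amt, the aminomethyltransferase that works beside Gldc (chromosome 9), ranged from 11.38 to 12.09 with a median of 11.62 in Padi6-mutant embryos and from 9.94 to 11.26 with a median of 10.58 in Control embryos. The lowest Padi6-mutant embryo (6, at 11.38) was above the highest Control embryo (7, at 11.26). Padi6-mutant 2 stood above the rest of its group. Padi6-mutant embryos averaged 11.66 ± 0.20 (SD, n = 9) against 10.62 ± 0.37 for Control embryos (SD, n = 10). The log2 difference of 1.04 (SE 0.16) lay between 0.96 and 1.11 when single libraries were left out. It was 1.14 with the length and GC trend taken out, 1.14 without the 4 sparse libraries, and 1.19 with the gene detection term.

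Tat, the first enzyme of tyrosine breakdown (chromosome 8), ranged from 4.58 to 11.14 with a median of 9.65 in Padi6-mutant embryos and from 11.29 to 13.15 with a median of 12.37 in Control embryos. Padi6-mutant 2, 5 and 3 came closest to the Control range, at 11.14, 10.95 and 10.74. Padi6-mutant 4 and 7 were at 8.59 and 8.49, and Padi6-mutant 8 was lowest of all at 4.58. The spread was wider among Padi6-mutant than among Control embryos, with means of 9.26 ± 2.00 for Padi6-mutant (SD, n = 9) against 12.36 ± 0.58 for Control (SD, n = 10). The log2 difference was -3.10 (SE 0.58), the 86th lowest of 14173 genes, a rank that is descriptive since Tat was chosen with this comparison known. The difference was -2.52 without Padi6-mutant 8, -2.38 without the 4 sparse libraries and -2.37 with the gene detection term.

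**Figure D2:**
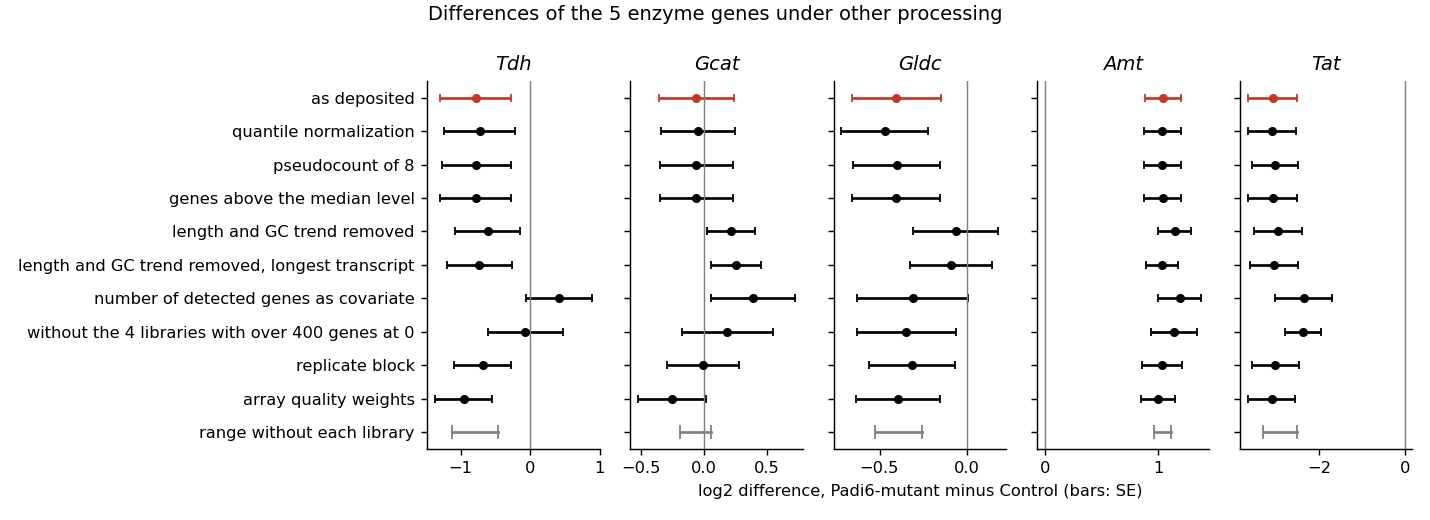
Log2 difference, Padi6-mutant minus Control, of the 5 enzyme genes under each processing (points, with SE bars) and its range when each library is left out (grey). The horizontal scales differ between genes. Tat stays between -3.33 and -2.37 and Amt between 0.96 and 1.19, while the value of Tdh lies between -1.13 and 0.41.

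Read within a library, where the scaling cannot matter, Tat lay at the 7.1 to 74.5 percentile of all genes in Padi6-mutant embryos (median 52.8) and at the 76.7 to 94.8 percentile in Control embryos (median 89.3). Amt lay at the 77.1 to 86.1 percentile in Padi6-mutant embryos (median 81.1) and at the 57.1 to 76.3 percentile in Control embryos (median 65.7). Tdh sat near the middle of the expressed genes, with a median percentile of 46.7 in Padi6-mutant and 59.6 in Control embryos. Gcat was at a median percentile of 61.1 in Padi6-mutant and 64.8 in Control embryos. Gldc was high in both groups, with a median percentile of 83.7 in Padi6-mutant and 87.6 in Control embryos.

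The order of the levels per kilobase of transcript differed between the groups. This follows from the opposite differences of Tat and Amt, genes chosen with this comparison known, and is a description. In Padi6-mutant embryos the median scaled count per kilobase was 1514 for Amt, 983 for Gldc, 683 for Gcat, 338 for Tat and 299 for Tdh. In Control embryos it was 2228 for Tat, 1247 for Gldc, 844 for Gcat, 734 for Amt and 615 for Tdh. Tat exceeded Amt per kilobase in 0 of 9 Padi6-mutant and 10 of 10 Control embryos, and Gldc exceeded Amt in 2 of 9 Padi6-mutant and 9 of 10 Control embryos. Tat and Tdh were neighbours in Padi6-mutant embryos, with Tat higher in 6 of 9, and Gcat and Amt were neighbours in Control embryos, with Gcat higher in 5 of 10, so those orders lie within the spread between embryos. Tdh was below Gcat in every embryo of both groups, but this order and the place of Gcat depend on the transcript used for Gcat. That was its shortest principal transcript (1736 nt), while the longest transcript under the symbol has 2370 nt. In Control 2 the scaled counts were 1997 for Tdh (1881 nt) and 1943 for Gcat. With 2370 nt, Gcat would therefore lie below Tdh in that embryo, so no fixed order of Tdh and Gcat is read.

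Whether the paired enzymes varied together from embryo to embryo was examined inside each group, where the difference between the groups plays no part. Among Padi6-mutant embryos, Tdh and Gcat gave r = 0.39 (n = 9, exact permutation p = 0.311, adjusted p = 0.497) and rho = 0.52 (exact permutation p = 0.162, adjusted p = 0.324), which did not pass. Padi6-mutant 10 was low in Tdh but not in Gcat; without it r was 0.73. Without Padi6-mutant 3 and 10, the farthest from the median of Tdh, r was 0.60 (exact permutation p = 0.162).

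Among Control embryos, Tdh and Gcat varied together (Pearson's r = 0.89, n = 10, permutation p = 8e-05, adjusted over 4 relations p = 0.00032; Spearman's rho = 0.90, permutation p = 0.00076, adjusted p = 0.00304). Control 7, 2, 1, 6 and 3 were high in both genes and Control 9 was lowest in both. Without Control 8 and 9, the embryos farthest from the median of Tdh, r was 0.93 (exact permutation p = 0.00365). Control 9, 8 and 5, the lowest in both genes, had 247, 153 and 130 genes at 0, and Control 4, the next in Gcat, had 238; the other Control libraries had 30 to 102. Given the number of detected genes, the partial correlation was 0.65 and no longer passed (permutation p, adjusted over 4 relations, of 0.16). Other genes reached similar values. Within Control embryos, r with Gcat was 0.96 for Ckb, 0.92 for Pgd and 0.91 for Mul1. With Tdh it was 0.94 for Trim27, 0.86 for Gab1 and 0.81 for Mybl2. These genes were picked for a high r, and how many genes reach 0.89 was not counted. The relation of Tdh and Gcat is therefore not read as particular to this pair. Whether the relation differs between the groups was not tested.

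Gldc and Amt, proteins of the same complex, showed no relation that passed. In Padi6-mutant embryos r was -0.25 (n = 9, exact permutation p = 0.551, adjusted p = 0.551) and rho was -0.28 (exact permutation p = 0.463, adjusted p = 0.463), with r = -0.24 without Padi6-mutant 5 and 7 (exact permutation p = 0.632). In Control embryos r was 0.32 (n = 10, permutation p = 0.373, adjusted p = 0.497) and rho was 0.41 (permutation p = 0.249, adjusted p = 0.331), with r = 0.19 without Control 1 and 4 (exact permutation p = 0.645).

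**Figure D3:**
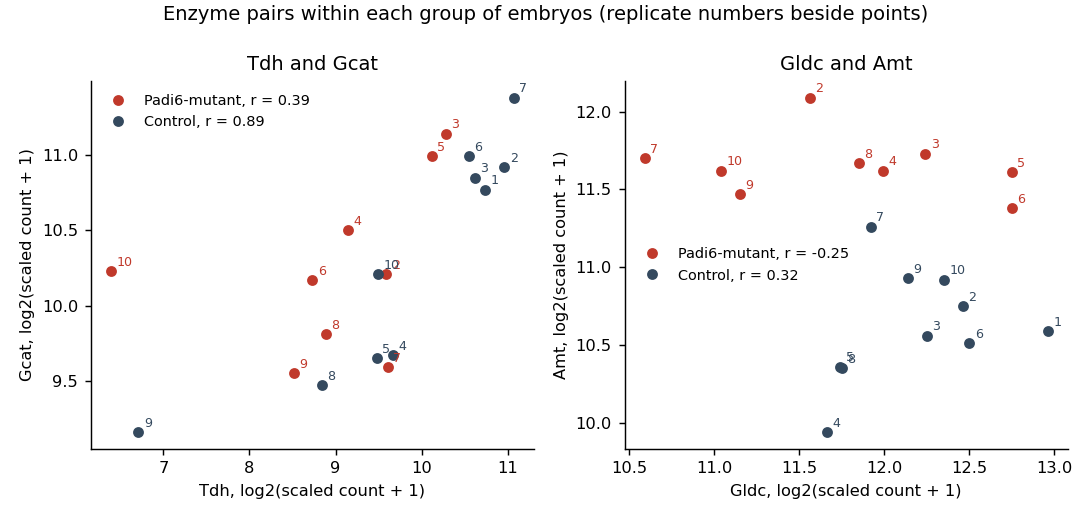
Levels of Gcat against Tdh (left) and of Amt against Gldc (right), as log2(scaled count + 1), with 1 point per embryo, its replicate number beside it and Pearson's r of each group in the legend. Padi6-mutant embryos lie above Control embryos in Amt at every level of Gldc, and Control embryos run along a rising line for Tdh and Gcat (r = 0.89).

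The other genes of these pathways were read from the same fit over all genes. Their lists were chosen with earlier results of these data known, so the adjusted p values below are a description and no independent test. In all, 6 of 23 listed genes passed, or 26.1%, which is near the 26.6% of all genes, so the counts by list below are no result about these pathways. Of 11 genes chosen as partners in threonine and glycine breakdown, 7 were listed, and 2 rose while 0 fell in Padi6-mutant embryos (median log2 difference 0.28). Sdsl, a relative of serine dehydratase, rose by 3.20 (SE 0.74, limma adjusted p = 0.0027), a value that depends on the pseudocount at this low level and was 2.23 with a pseudocount of 8 in place of 1. It ranged from 3.58 to 8.04 with a median of 6.07 in Padi6-mutant embryos and from 0 to 4.46 with a median of 3.75 in Control embryos, at 0 in Control 5 and 8. Padi6-mutant 7, at 3.58, lay inside the Control range, and the other 8 Padi6-mutant embryos lay above it. Lias, the lipoyl synthase that supplies the cofactor of Gcsh, rose by 0.54 (SE 0.20, limma adjusted p = 0.0445), and this call was lost in 12 of the 19 fits that leave out a library (highest adjusted p = 0.0873), under quantile normalization (adjusted p = 0.0644), with the length and GC trend taken out (0.0724), without the 4 sparse libraries (0.12) and with the gene detection term (0.178). Gcsh (0.28, SE 0.26, limma adjusted p = 0.456) and Alas1, which uses glycine for haem synthesis (0.28, SE 0.22, adjusted p = 0.362), did not pass, nor did Dld (-0.13, SE 0.155, adjusted p = 0.572). Alas1 passed once the length and GC trend was taken out, at 0.58 (limma adjusted p = 0.016).

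In the list of serine and glycine synthesis and the one-carbon units tied to it, the calls were on the lower side. Of 11 genes, all listed, 3 fell and 0 rose (median log2 difference -0.42). Aldh1l1, the cytosolic formyltetrahydrofolate dehydrogenase, ranged from 8.17 to 10.44 with a median of 9.46 in Padi6-mutant embryos and from 9.28 to 11.87 with a median of 10.53 in Control embryos, and fell by 1.34 (SE 0.34, limma adjusted p = 0.0052). Shmt2, the mitochondrial enzyme that makes glycine from serine, ranged from 7.97 to 10.73 with a median of 9.39 in Padi6-mutant embryos and from 9.26 to 11.63 with a median of 10.99 in Control embryos, and fell by 1.27 (SE 0.38, limma adjusted p = 0.0158). Mthfd1, the trifunctional cytosolic enzyme of the folate cycle, fell by 0.58 (SE 0.17, limma adjusted p = 0.0138). Shmt1, the cytosolic counterpart of Shmt2, gave -0.42 (SE 0.20, adjusted p = 0.124) and did not pass. The 3 calls were lost without the 4 sparse libraries, where Aldh1l1 was at -0.73 (limma adjusted p = 0.147), Shmt2 at -0.97 (adjusted p = 0.104) and Mthfd1 at -0.46 (adjusted p = 0.118), and also with the gene detection term, where they were at -0.53, -0.69 and -0.32 (adjusted p = 0.282, 0.319 and 0.299). Fewer genes were called over the whole table in these fits as well. There were 2622 without those 4 Padi6-mutant libraries and 1807 with the gene detection term, against 3765 as deposited. The length and GC trend also mattered for Mthfd1, which was at -0.29 and did not pass once it was taken out (limma adjusted p = 0.0902). With quality weights Shmt1 passed, at -0.62 (limma adjusted p = 0.0102).

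Of 10 genes chosen around tyrosine and phenylalanine, 5 were listed, and 1 fell while 0 rose (median log2 difference -0.29). That gene was Got2, the mitochondrial aspartate aminotransferase, which ranged from 9.25 to 11.38 with a median of 10.55 in Padi6-mutant embryos and from 10.38 to 12.43 with a median of 11.62 in Control embryos, and fell by 1.11 (SE 0.28, limma adjusted p = 0.0046). Its call ended with the gene detection term (-0.65, adjusted p = 0.171). Its cytosolic counterpart Got1 (-0.51, SE 0.20, limma adjusted p = 0.0659), Pcbd1, which regenerates the cofactor of phenylalanine hydroxylase (1.12, SE 0.45, adjusted p = 0.0714), and Qdpr, which works in the same recycling (-0.29, SE 0.31, adjusted p = 0.507), did not pass. Gstz1, the only later enzyme of tyrosine breakdown among the listed genes of this group, gave -0.01 (SE 0.24, adjusted p = 0.982). The value of Pcbd1 depended on the processing: it was 0.068 with the length and GC trend taken out (limma adjusted p = 0.923), and it passed at 1.22 with quality weights (adjusted p = 0.0167). Got1 passed with quality weights (-0.54, limma adjusted p = 0.0218) and under quantile normalization (-0.61, adjusted p = 0.031).

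**Figure D4:**
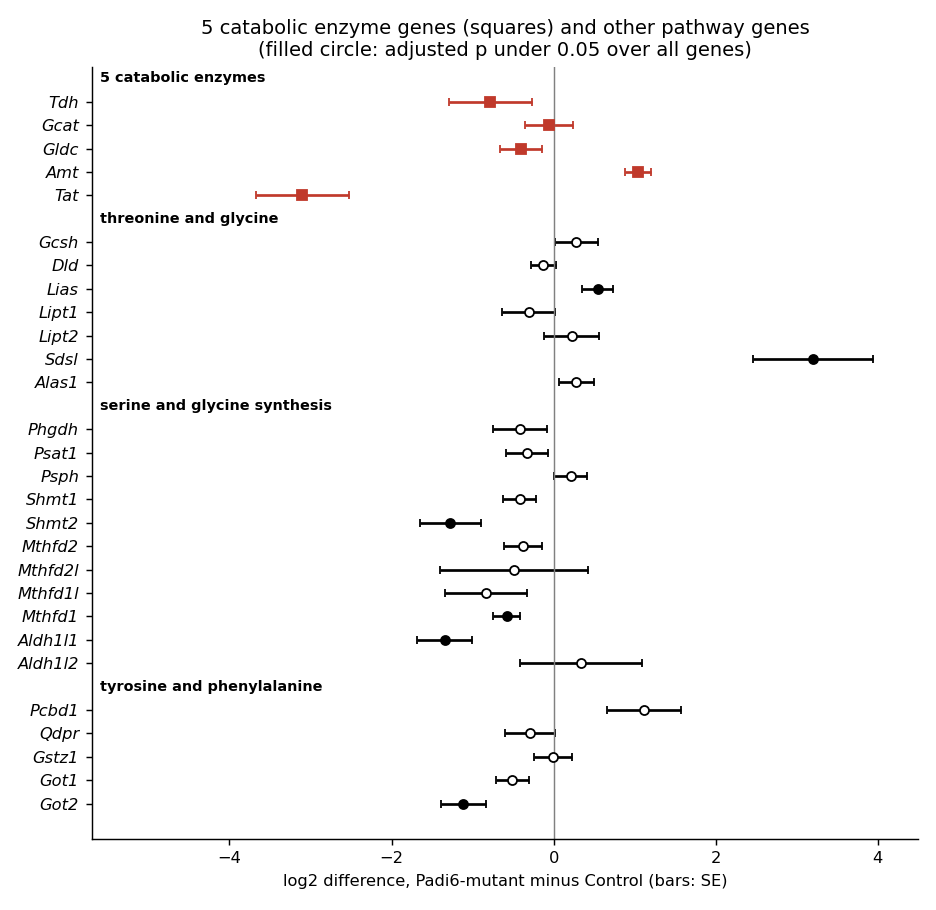
Log2 difference, Padi6-mutant minus Control, with its SE, for the 5 catabolic enzymes (red squares) and for 23 other listed genes of the pathways (circles, filled where the limma adjusted p over all genes was under 0.05). The 6 filled circles are Lias and Sdsl on the positive side and Shmt2, Mthfd1, Aldh1l1 and Got2 on the negative side.

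Each of the 5 genes was also set against the others among 6903 named genes with a mean above the median. Pearson's r of the log2 levels was taken over the 19 libraries after the group means were taken off. The points share library depth and quality, so these values are a description. Closest to Tdh were Mybl2, a transcription factor of the cell cycle (r = 0.88), Gab1, an adaptor of receptor signalling (0.88), and Trim27, a RING ubiquitin ligase (0.87). Closest to Gcat were Ckb, a creatine kinase (0.92), Pgd, an enzyme of the pentose phosphate pathway (0.92), and Mul1, a ubiquitin ligase of the mitochondrial outer membrane (0.92). Closest to Gldc were Gulo, the last enzyme of vitamin C synthesis in mice (0.88), the transcription factor Deaf1 (0.85) and Sephs1 (0.81). For Amt the nearest were Golm2 (0.75), Eif3j2, whose reads may be shared with its near-identical copy Eif3j1 (0.70), and Nsun4, a methyltransferase of mitochondrial RNA (0.68). Within Padi6-mutant embryos, r with Amt was 0.295 for Golm2, -0.45 for Eif3j2 and 0.53 for Nsun4. Within Control embryos, it was 0.86 for Golm2, 0.85 for Eif3j2 and 0.76 for Nsun4. For Tat they were Tbl2 (0.83), Piwil2 of the piRNA pathway (0.80) and Rabggta (0.79). With each, r was 0.85 to 0.93 within Padi6-mutant and 0.17 to 0.29 within Control embryos. Padi6-mutant 8 lay far below its group in Tat, at 4.58 with the next at 8.49, and r without it was not computed. Among the 5 genes themselves, r was highest for Tdh with Gcat (0.70) and for Gcat with Gldc (0.55).

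Some other measures of the libraries differed between the groups, though the ranges overlapped in each. For the marker calls below, the shares over all genes were 14.6% higher and 12.0% lower in Padi6-mutant embryos. Genes at 0 numbered 113 to 596 in Padi6-mutant libraries (median 203) and 30 to 247 in Control libraries (median 101), and the scaled counts summed to 40.8 to 53.1 M in Padi6-mutant and 36.3 to 49.2 M in Control libraries. The summed level of 11 listed inner cell mass markers, of which 5 fell and 0 rose, was 55484 to 84661 scaled counts in Padi6-mutant embryos and 75352 to 146510 in Control embryos. For 9 primitive endoderm markers, of which 7 fell, it was 31133 to 44273 in Padi6-mutant and 30186 to 90030 in Control embryos. For 11 trophectoderm markers, of which 3 rose and 1 fell, it was 123809 to 600719 in Padi6-mutant and 271234 to 432957 in Control embryos. Of 10 markers of cumulus and granulosa cells only Inhbb and Star were listed, neither passed, and their sum was 97 to 345 in Padi6-mutant and 151 to 505 in Control embryos. In whole embryos, fewer cells of a type and less RNA per cell cannot be told apart, and the part of lineage makeup in the values of Tdh, Tat and the other genes was not tested.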

How the data were processed

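Polyadenylated RNA of 9 Padi6-mutant and 10 Control blastocysts was read as 1 library per embryo. Per the labels' protocols, RNA and DNA were parted with the G&T method and cDNA was made by template switching and amplified by PCR. Per the submitters' processing notes, Trim Galore 0.4.4 and HISAT2 2.1.0 were used, with builds GRCm39 and mm39; the counting tool, strand setting and annotation are not given in the sources used here. The authors deposited log2 values; taken back from the log2 scale each was whole to within 1.96e-07, which was taken as scaled count + 1, and the upper quartile was 2322 in all 19 libraries. A scaled count is not a read, so no counting interval is given. Every gene was above 0 in at least 9 libraries, and no filter was applied. No 2 libraries had a Spearman's rho above 0.972, so none was taken as a duplicate.

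Groups were compared with limma 3.58.1 in R 4.3.3 (lmFit, eBayes with a trend, two-sided), adjusted by Benjamini-Hochberg over all 14173 genes with a threshold of 0.05; the code was tested on simulated data. The 5 genes and the pathway lists were chosen with earlier results of these data known. From each list up to 4 genes with the smallest adjusted p were named, whether or not they passed, and other genes named were chosen after their values were seen. Of each of the 5 genes, the 3 with the highest group-centred Pearson's r were named. Correlations within a group carry a two-sided permutation p, exact over all pairings for up to 9 libraries and from 100000 resamples for 10. Transcript lengths and GC content came from GENCODE M21 (GRCm38) by symbol, for 94.2% of genes, and the trend on them was removed per library by lowess with a span of 0.3. Levels per kilobase used the shortest principal transcript. Promoters came from RefSeq on GRCm38.p6, an older build than the one in the processing notes. Other settings tried were quantile normalization, a pseudocount of 8, genes above the median level, a term for the number of genes detected in each library, quality weights, a block for the replicate number, and leaving out libraries.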

Additional observations from a re-analysis of the deposited data

Results flagged for a closer look

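In 34 sets of values (17 genes in 2 groups), the gap from the highest or lowest embryo to its nearest neighbour was divided by the range (Dixon's rule). For independent sets of normal values the rule flags about 1 in 20, and 6 were flagged here. The sets come from the same libraries and are not independent, so no excess is read from this count. Tat in Padi6-mutant 8 was at 4.58, below the next Padi6-mutant embryo at 8.49. Tdh in Padi6-mutant 10 was at 6.39, with the next at 8.52, and Tdh in Control 9 was at 6.71, with the next at 8.84. Amt in Padi6-mutant 2 was at 12.09, above the next at 11.73. Gcsh in Padi6-mutant 6 was at 15.03, above the next at 13.78, and Mthfd1 in the same embryo was at 12.0, below the next at 12.6. Padi6-mutant 6, 8 and 10 are among the 4 libraries with over 400 genes at 0.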

How the results depend on the processing

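Under the alternatives run the difference of Tat lay between -3.33 and -2.37 and that of Amt between 0.96 and 1.19; both genes were chosen with this comparison known, so this is a description. With the term for gene detection, 1807 of all genes were called in place of 3765, with 1 call in the threonine and glycine list, 0 in the serine and glycine synthesis list and 0 in the tyrosine and phenylalanine list, and the Control correlation of Tdh and Gcat became 0.65. The threonine and glycine list had 2 calls as deposited. It had 1 among genes above the median level, a fit that did not hold Sdsl and in which Lias passed (limma adjusted p = 0.0356). It also had 1 under quantile normalization, without the 4 libraries with over 400 genes at 0 and with the replicate block (1 to 2 over left-out libraries). The serine and glycine synthesis list had 0 without those 4 libraries. The tyrosine and phenylalanine list had 1 call as deposited, 2 under quantile normalization, 2 with the longest transcript in the length and GC trend (an alternative chosen after seeing the data) and 3 with quality weights (1 to 3 over left-out libraries). Signs turned for Gcsh (-0.17 with the longest transcript, -0.093 with the detection term), Qdpr (0.30 with the detection term, 0.17 without the 4 libraries) and the Gldc and Amt correlation in Padi6-mutant embryos (-0.40 to 0.015 over left-out libraries). The causes were not tested.

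Same-numbered libraries share only a number: the correlations of their deviations were -0.07 to 0.15, with 1 of 9 pairs over 0.1 and 1 of 9 Padi6-mutant libraries closest to its own number. With the replicate block 2528 genes were called, Tat was at -3.04 and Amt at 1.03, and the calls of Lias (0.45) and Mthfd1 (-0.52) ended. Correlations in Padi6-mutant embryos without the 4 libraries were not run, since 5 embryos were too few. Depth in reads is unknown, so no counting error can be given for low genes such as Sdsl.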
